A study of Mus musculus with 9 samples.

Results

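Peaks of accessible chromatin that lay at the end of a single protein-coding gene were examined in 9 ATAC-seq libraries of the mouse melanoma line B16. The 9214 most significant peaks of each library on chromosomes 1 to 19 and X were merged where they overlapped or touched, which gave 15669 regions. A region was a member when it lay within 1 kb of an annotated end of exactly 1 protein-coding gene in the RefSeq annotation of GRCm38. This held for 7027 regions (44.8%), at 6868 genes. Width, rank and number of calls were not part of the rule. Distance was taken from the edges of the merged region, so a wider region reaches a gene end, or a second one, more easily. The other 8642 regions lay at the ends of several coding genes (1567), inside a coding gene away from its ends (3905) or between genes (3170).

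In ATAC-seq, the Tn5 transposase inserts adaptors where DNA is not wrapped around nucleosomes, and peaks mark the stretches cut most often. The starts of active genes are the best known such stretches: nucleosomes are displaced there, transcription factors and RNA polymerase II bind, and many of these starts lie in CpG islands that are open in most cell types. Interferon gamma acts through the receptor chains Ifngr1 and Ifngr2 and the kinases Jak1 and Jak2 to activate transcription at GAS elements, which induces genes such as Irf1 and those of antigen presentation.

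The 8 promoters below belong to the members on which the text turns: the Hjurp member had the best mean rank among members at a matched start, the Mylip and Phb members had the smallest unadjusted p in a rank comparison, and the other 5 came first, among members with a matched start, in a list of members gained or lost between groups. Each runs from 250 bases before to 50 after the annotated start, 5′ to 3′ on the strand of the gene, and comes from RefSeq on GRCm38.p6. Capitals mark matches to 13 short motifs, which are spelled out with the composition of promoters. The windows are chr1:88277530-88277829 (minus strand) for Hjurp, chr13:45389492-45389791 (plus) for Mylip, chr11:95666707-95667006 (plus) for Phb and chr15:80948240-80948539 (plus) for Adsl. They are chr7:19119609-19119908 (plus) for Fbxo46, chr4:117133914-117134213 (minus) for Plk3, chr2:177206447-177206746 (minus) for Gm14410 and chr4:95967129-95967428 (plus) for Hook1.
Hjurp: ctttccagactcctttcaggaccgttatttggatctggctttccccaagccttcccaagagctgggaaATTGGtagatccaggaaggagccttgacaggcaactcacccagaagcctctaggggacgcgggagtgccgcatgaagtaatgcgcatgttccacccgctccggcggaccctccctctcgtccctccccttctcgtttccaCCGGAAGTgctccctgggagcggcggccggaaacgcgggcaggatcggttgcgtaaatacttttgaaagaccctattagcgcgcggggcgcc
Mylip: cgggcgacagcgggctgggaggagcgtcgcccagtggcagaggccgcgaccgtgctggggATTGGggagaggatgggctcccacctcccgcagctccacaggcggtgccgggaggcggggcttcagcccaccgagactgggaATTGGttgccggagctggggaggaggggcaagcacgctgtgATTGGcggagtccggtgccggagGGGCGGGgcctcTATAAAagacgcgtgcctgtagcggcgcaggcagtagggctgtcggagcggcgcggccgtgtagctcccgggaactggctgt
Phb: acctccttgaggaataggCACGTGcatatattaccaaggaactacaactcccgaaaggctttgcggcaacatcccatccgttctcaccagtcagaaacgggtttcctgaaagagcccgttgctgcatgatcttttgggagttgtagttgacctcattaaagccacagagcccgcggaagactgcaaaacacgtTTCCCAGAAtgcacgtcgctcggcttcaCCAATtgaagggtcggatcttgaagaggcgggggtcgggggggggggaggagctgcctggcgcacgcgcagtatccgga
Adsl: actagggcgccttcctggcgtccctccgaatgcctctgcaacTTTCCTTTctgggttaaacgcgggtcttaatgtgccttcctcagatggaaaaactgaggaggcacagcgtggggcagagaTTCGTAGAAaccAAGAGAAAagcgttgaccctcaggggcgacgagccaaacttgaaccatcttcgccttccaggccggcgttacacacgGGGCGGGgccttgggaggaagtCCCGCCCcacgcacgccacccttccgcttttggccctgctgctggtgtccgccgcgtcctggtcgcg
Fbxo46: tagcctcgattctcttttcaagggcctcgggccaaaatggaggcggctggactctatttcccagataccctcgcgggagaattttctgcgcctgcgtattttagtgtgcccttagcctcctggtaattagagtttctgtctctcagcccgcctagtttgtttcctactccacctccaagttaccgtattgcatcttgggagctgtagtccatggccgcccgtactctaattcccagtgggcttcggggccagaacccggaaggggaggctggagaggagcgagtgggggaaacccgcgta
Plk3: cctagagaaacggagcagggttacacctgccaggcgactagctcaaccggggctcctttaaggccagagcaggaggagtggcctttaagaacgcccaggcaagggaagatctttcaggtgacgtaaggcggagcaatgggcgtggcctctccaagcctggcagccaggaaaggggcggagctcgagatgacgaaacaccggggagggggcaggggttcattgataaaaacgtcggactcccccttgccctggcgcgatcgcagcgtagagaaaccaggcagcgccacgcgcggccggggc
Gm14410: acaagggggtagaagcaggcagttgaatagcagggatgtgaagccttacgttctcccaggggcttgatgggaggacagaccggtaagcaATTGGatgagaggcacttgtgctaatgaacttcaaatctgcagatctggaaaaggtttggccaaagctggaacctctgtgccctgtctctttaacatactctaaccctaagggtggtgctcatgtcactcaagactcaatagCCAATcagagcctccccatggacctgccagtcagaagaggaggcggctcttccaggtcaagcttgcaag
Hook1: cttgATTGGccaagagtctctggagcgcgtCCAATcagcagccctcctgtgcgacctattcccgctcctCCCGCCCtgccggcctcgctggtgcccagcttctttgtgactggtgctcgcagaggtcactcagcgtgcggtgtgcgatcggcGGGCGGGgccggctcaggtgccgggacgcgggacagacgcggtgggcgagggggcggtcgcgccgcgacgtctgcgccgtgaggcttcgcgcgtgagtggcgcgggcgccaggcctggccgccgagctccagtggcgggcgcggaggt
Mylip, an E3 ubiquitin ligase, held Sp1, NFY and TATA letters. Phb held NFY, E-box and GAS letters, and Adsl held Sp1, IRF and GAS letters, so each of these 3 windows held 3 kinds of match. Hjurp held ETS and NFY letters, Hook1 Sp1 and NFY letters, and Gm14410 NFY letters alone. The Fbxo46 and Plk3 windows held none of the 13 motifs, which says only that these letters are absent there. The GC content of the 8 windows ran between 51.3% in Gm14410 and 72.7% in Hook1.

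The cells were injected into mice, recovered by sorting from the tumours on day 15, and profiled in 3 libraries per group. B16_IFNg was B16 treated chronically with interferon gamma before injection, for 2 weeks in replicates 1 and 2 and for 3 weeks in replicate 3. Res499 was strain 499, a derivative of B16 that resists checkpoint blockade, with no treatment. B16_untreated was B16 given no treatment. Each line was compared as a pool of sorted cells, and whether Res499 is 1 clone, whether replicates came from separate mice and which gate was used for sorting are not given in the sources used here. The p-values therefore measure the spread between these libraries, which may be technical. A lower signal in a pool can come from fewer cells with the region open or from less opening per cell, and these cannot be told apart.

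The deposited lists held 9221 to 25374 peaks and no read counts, so the sequencing depth behind a peak is unknown. The −log10 p of the last peak used was 10.1, 8.03 and 7.46 in B16_IFNg, 8.75, 4.92 and 8.03 in Res499, and 11.8, 16.4 and 15.1 in B16_untreated. The 3 untreated libraries thus used peaks of higher significance than the other 6, with no overlap. The shortest peak was 162 to 185 bp long in 4 libraries (B16_IFNg replicate 3, Res499 replicate 3 and B16_untreated replicates 1 and 3, here the long class) and 95 to 125 bp in the other 5 (the short class). Of 20 melanocyte genes, Mitf, Pax3 and Pmel had a used peak within 1 kb of an end in every library. None of 13 leukocyte and 5 endothelial markers had a used peak there in any library, and in the full lists the leukocyte markers had 1 in at most 1 gene of an untreated library. Of 7 fibroblast markers, 1 (Col1a1) had a used peak, in B16_IFNg and Res499 libraries. In the full lists Col1a1 had a peak in every B16_IFNg and every B16_untreated library. There 1 of the 7 markers had a peak in a B16_IFNg library, 0 to 1 in a Res499 library and 1 to 2 in an untreated one.

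Most members sat on gene starts. An annotated end was overlapped by 5819 members (82.8%), a further 815 lay 1 to 500 bp away and 393 lay beyond that, up to 1000 bp away. The gene table gives no strand or exons, so exons, introns and UTRs are not stated, and starts were recognised by matching to the promoter table. Of the 5668 members matched this way, 5480 (96.7%) were at a start, 144 (2.54%) at the finish of the gene and 44 (0.776%) within reach of both. Nearly all genes with a member (6713) had 1, while 151 had 2 and 4 had 3. Just inside the limit of 1 kb were members at Id1 (1000 bp), 4930467E23Rik (999 bp) and Gm42048 (998 bp), called in 1, 1 and 2 libraries. Just outside were regions 1002 bp from Zfp771, 1004 bp from Irf2 and 1008 bp from Nrcam, called in 9, 2 and 1 libraries.

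Members at starts were wider and ranked better than members at gene finishes in every library. The median width per library averaged 572 ± 129 bp at starts and 381 ± 132 bp at finishes (SD, n = 9 libraries each), a difference of 191 ± 40.1 bp (two-sided exact sign-flip test over libraries, p = 0.00391, in 9 of 9 libraries). The median rank, as a percentage of 9214 with 0 the most significant, averaged 42.5 ± 0.613% at starts and 67.1 ± 4.18% at finishes (SD, n = 9 each, exact sign-flip p = 0.00391, in 9 of 9 libraries). Of start members 2472 (45.1%) were called in all 9 libraries and 434 (7.92%) in 1, against 15 (10.4%) and 58 (40.3%) of finish members. The finish members were thus mostly seen in few libraries, and their levels say little about group differences.

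Members were called in more libraries than other regions. All 9 libraries called 2993 members (42.6%), against 1488 of the other regions (17.2%), and 655 members (9.32%) were called in 1 library, against 2769 of the others (32.0%). Regions inside genes were called in all 9 libraries in 12.4% of cases and intergenic ones in 7.92%. Regions at the ends of several genes, at 48.0%, stood slightly above the members. A region merged from more libraries can be wider and so reach a gene end more easily, and the part of this in the shares was not tested.

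**Figure D1:**
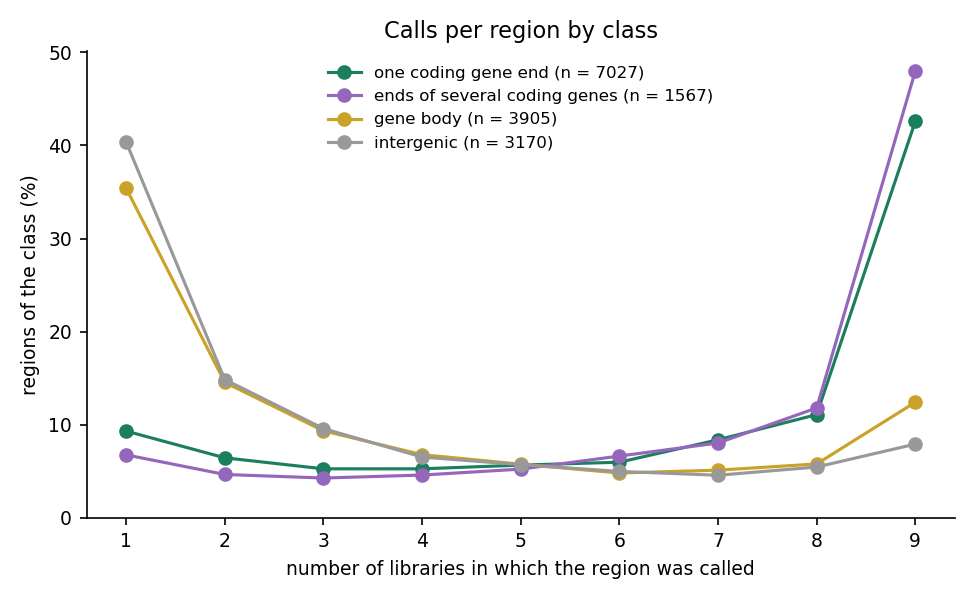
Share of the regions of each class (y axis, %) by the number of libraries that called them (x axis, 1 to 9), with a line for each class. The line of members climbs to 42.6% at 9 libraries and starts at 9.32% at 1 library, while the intergenic line starts at 40.4% and ends at 7.92%.

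Compared library by library, member peaks were wider and more significant than the peaks of other regions. Their median width averaged 565 ± 131 bp, against 448 ± 120 bp for the others (SD, n = 9 libraries), a mean difference of 117 ± 24.6 bp. Their median rank averaged 43.9 ± 0.564%, against 57.1 ± 0.608% for the others (SD, n = 9). A member called in a library was called on average in 7.79 ± 0.124 libraries, against 6.47 ± 0.126 for other regions (SD, n = 9). Each of these 3 differences had the same sign in 9 of 9 libraries. For width and rank the two-sided exact sign-flip p was 0.00391 each, and 0.00426 adjusted over 12 such tests. The number of calling libraries is 1 count per region shared by all libraries, so its 9 values are not independent and no p is given. Regions at the ends of several genes went slightly further the same way. Against them, members differed by -28.6 ± 6.55 bp in width and by 2.57 ± 1.30 points in rank, a worse rank, in 9 of 9 libraries (exact sign-flip p = 0.00391, adjusted 0.00426). The mean number of calling libraries differed by -0.178 ± 0.0970 from those regions, with the same sign in 8 of 9 libraries, and is given as a description. The classes are not independent of width, because wider merged regions reach 1 or several gene ends more easily. How much of these gaps follows from the rule was not tested.

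Promoters of members were rich in GC and CpG, the more so the more libraries called the member. Promoter windows overlapping members called in all 9 libraries (2430) had a median GC content of 64.3% and an observed over expected CpG ratio of 0.844. For members called in 4 to 8 libraries (1888) the medians were 61.3% and 0.796, and for 1 to 3 libraries (856) they were 60.7% and 0.747. Coding promoters that overlapped no region (11886) had 50.7% and 0.274, and all 21045 coding promoters had 56.7% and 0.574.

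Motifs were searched on both strands of the same windows. The GC-box letters of Sp1 (GGGCGGG) stood in 63.3% of the promoters of members called in all 9 libraries, against 51.2% for 4 to 8, 48.7% for 1 to 3, 19.1% with no region and 34.2% of all coding promoters. The NFY letters (CCAAT) stood in 45.9%, 38.2% and 31.2% of members by falling number of libraries, 37.5% with no region and 38.5% of all. NRF1 (GCGCATGC) stood in 8.52%, 6.57%, 4.67%, 1.11% and 3.54%, in the same order. These 3 shares were highest where the region was called in every library. The TATA letters (TATAAA) ran the other way, with 4.32%, 6.62%, 7.36%, 18.4% and 12.7%, and so did the IRF letters (AANNGAAA), with 13.9%, 15.8%, 17.6%, 26.6% and 21.6%. The GAS letters (TTCNNNGAA) stood in 5.93%, 6.14%, 7.13%, 8.83% and 7.76%. ETS (CCGGAAGT) stood in 8.48%, 10.6%, 7.83%, 1.22% and 5.20%. The CRE (TGACGTCA), YY1 (AAGATGGC), ZBTB33 (TCGCGAGA) and E-box (CACGTG) letters were each more frequent in all 3 member sets than in promoters with no region. The AP-1 (TGANTCA) and M-box (TCATGTG) letters were each less frequent in all 3 member sets than there. Matches were counted per motif and those of different motifs may share bases. Over all 32619 promoters in the table the shares were 25.7% for Sp1, 37.6% for NFY, 2.72% for NRF1, 13.7% for TATA, 23.9% for IRF, 8.34% for GAS and 3.91% for ETS. They were 1.80% for CRE, 2.76% for YY1, 1.002% for ZBTB33, 7.20% for the E-box, 7.85% for AP-1 and 3.79% for the M-box. GC content moved with these shares, and its part in them was not tested.

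**Figure D2:**
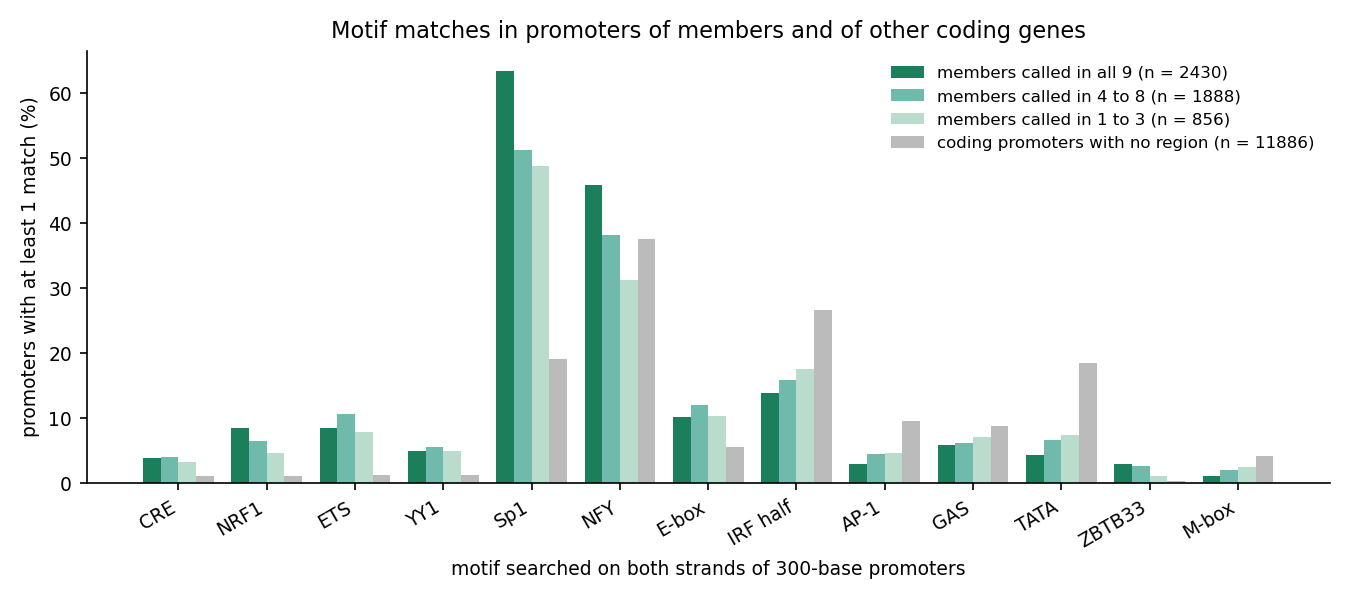
Share of promoter windows (y axis, %) with at least 1 match to each of 13 motifs (x axis), for promoters of members by number of libraries and for coding promoters with no region. The Sp1 bars are tallest for members called in all 9 libraries (63.3%) and shortest for promoters with no region (19.1%), and the TATA bars run the other way (4.32% and 18.4%).

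The members with the best mean rank over the 9 libraries were by that choice highly ranked in every group, so their levels are given as a description. The best mean rank belonged to a member near the finish of Lars2, the mitochondrial leucyl-tRNA synthetase (chr9:123461814-123462174), with ranks 8, 11 and 5 in B16_IFNg, 8, 9 and 5 in Res499 and 5, 5 and 5 in B16_untreated. Such ranks are unusual for finish members, whose median rank averaged 67.1%. The treatment of reads that fit several places is not given in the sources used here, for this or any other region. The value at Lars2 is therefore uncertain. The start of Hjurp, the chaperone that loads CENP-A at centromeres (chr1:88276823-88278102), had ranks 17, 20 and 24 in B16_IFNg, 31, 35 and 27 in Res499 and 23, 22 and 24 in B16_untreated. Kbtbd8, an adaptor of a ubiquitin ligase, ranked 19, 19 and 29 in B16_IFNg, 63, 55 and 34 in Res499 and 39, 13 and 17 in B16_untreated. All 3 were among the first 63 peaks of every library, and at Hjurp the Res499 libraries did not overlap the other 6. The next by mean rank were the starts of Sp4 (a GC-box binding factor), Mad2l1 (the spindle checkpoint protein Mad2), Cldnd1, Ppm1k, Tedc1, Gadd45a (a DNA damage response gene) and Sel1l (endoplasmic reticulum protein degradation), each with a rank of 233 or better in each library.

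The widest members lay at Setd5, Sp4, Ube2d3, Bhlhe40 and Rap2b, all at a matched start except Bhlhe40, which was not matched. The Setd5 peak was 1489, 1717 and 1433 bp wide in B16_IFNg, 1748, 1418 and 1401 bp in Res499 and 1819, 1645 and 1661 bp in B16_untreated. Sp4 was 1486, 1509 and 1480 bp wide in B16_IFNg, 1456, 1419 and 1363 bp in Res499 and 1387, 1674 and 1616 bp in B16_untreated. In both genes the untreated libraries overlapped both other groups, and the narrowest peak was 1363 bp wide. Bhlhe40, a basic helix-loop-helix repressor, was 1442, 779 and 1742 bp wide in B16_IFNg, 1532, 478 and 1440 bp in Res499 and 1799, 1676 and 2200 bp in B16_untreated.

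The number of members called did not differ between the groups beyond the spread of the libraries. With 9214 peaks used in each library, B16_IFNg called 5270, 5209 and 4975 members, Res499 called 5327, 5055 and 5152, and B16_untreated called 5023, 5029 and 4913. Every Res499 library was above every untreated one, and the B16_IFNg libraries overlapped the untreated ones. The means were 5151 ± 156 in B16_IFNg, 5178 ± 138 in Res499 and 4988 ± 65.3 in B16_untreated (SD, n = 3 each; two-sided exact permutation test over 3 groups, p = 0.225, adjusted over 3 measures 0.338). Res499 exceeded B16_untreated by 190 members (exact p = 0.1, the smallest that 3 against 3 libraries can give) and B16_IFNg exceeded it by 163 (exact p = 0.3). With the lists used at their full, unequal lengths the sign turned: B16_IFNg and Res499 together minus B16_untreated gave -1316 members (exact p = 0.0595). With B16_IFNg and Res499 in 1 group, a grouping chosen after the values were seen, the excess over B16_untreated was 176 (exact p = 0.0833), and without B16_IFNg replicate 3 it was 214 (exact p = 0.0357).

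The median rank of member peaks did not differ between groups beyond the spread of the libraries. It was 44.3%, 43.3% and 44.8% of the list in B16_IFNg, 43.6%, 43.0% and 44.2% in Res499, and 43.9%, 43.9% and 44.3% in B16_untreated (exact permutation test over 3 groups, p = 0.55). The pair differences were 0.074 points for B16_IFNg minus B16_untreated, -0.43 for Res499 minus B16_untreated and -0.50 for Res499 minus B16_IFNg. With 4607 peaks per library the signs of the Res499 differences turned, to 0.82 against B16_untreated and 0.58 against B16_IFNg, with an exact permutation p of 0.05 over 3 groups.

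Member peaks were narrower in B16_IFNg and Res499 than in B16_untreated. The median width was 560, 427 and 540 bp in B16_IFNg, 500, 375 and 539.5 bp in Res499, and 675, 674 and 796 bp in B16_untreated. The untreated libraries did not overlap the other 6. The means were 509 ± 71.7 bp in B16_IFNg, 471.5 ± 85.9 bp in Res499 and 715 ± 70.1 bp in B16_untreated (SD, n = 3 each; exact permutation test over 3 groups, p = 0.0179). Adjusted over the 3 measures compared, this p was 0.0536 and missed 0.05. The differences were -206 bp for B16_IFNg and -243.5 bp for Res499 against B16_untreated (exact p = 0.1 each, the smallest possible), and -37.5 bp for Res499 against B16_IFNg (exact p = 0.5). With both groups together, a comparison chosen after the widths were seen, the ratio to B16_untreated was 0.686 (exact p = 0.0119 over 84 choices). Without B16_untreated replicate 3, the exact p over 3 groups was 0.0536.

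The same order held within the fragment classes. In the long class the medians were 540 bp in B16_IFNg, 539.5 bp in Res499 and 675 and 796 bp in B16_untreated. In the short class they were 560 and 427 bp in B16_IFNg, 500 and 375 bp in Res499 and 674 bp in B16_untreated (exact permutation within classes, p = 0.0444). It also held when the ranks were cut into 5 equal bins: in the best bin, B16_IFNg averaged 640 ± 73.9 bp, Res499 618.5 ± 69.9 bp and B16_untreated 819 ± 69.8 bp (SD, n = 3 each), and in the last bin 358 ± 82.4, 306 ± 89.1 and 578 ± 78.6 bp. The ratio of the first 2 groups together to B16_untreated was 0.769 in the best bin and 0.575 in the last, and 0.730 over the 2993 members called in all 9 libraries.

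Peaks away from single gene ends were narrower as well. The other regions averaged 401 ± 78.8 bp in B16_IFNg, 368 ± 79.1 bp in Res499 and 575 ± 89.0 bp in B16_untreated (SD, n = 3 each; exact permutation p = 0.0321). The ratio of member width to that of other regions averaged 1.28 in B16_IFNg, 1.29 in Res499 and 1.25 in B16_untreated, a difference within the spread of the libraries (exact permutation p = 0.829).

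Width moved with the significance of the peaks. Among member peaks with a −log10 p of 20 to 30, the median width was 648, 570 and 695 bp in B16_IFNg, 639.5, 639 and 677 bp in Res499, and 724, 639 and 772.5 bp in B16_untreated. Here the groups overlapped, and the 2 groups together were 0.906 times as wide as B16_untreated, 67.1 bp less (exact permutation p = 0.155). Among peaks with a −log10 p of 30 to 50 the means were 703.5 ± 90.1 bp in B16_IFNg, 714.5 ± 56.8 bp in Res499 and 797 ± 78.1 bp in B16_untreated (SD, n = 3 each), a ratio of 0.890 for the 2 groups together (exact permutation p = 0.131). In these ranges the gap was smaller than over all member peaks. The exact permutation p over 3 groups was 0.346 in each range, against 0.0179 (adjusted 0.0536) over all member peaks. Whether peak significance accounts for the gap in width was not tested. The numbers of such peaks were unequal: B16_IFNg held 619 to 1269 member peaks with a −log10 p of 20 to 30 per library, Res499 held 225 to 894 and B16_untreated held 1807 to 1889. With a −log10 p of 30 to 50 there were 95 to 322 in B16_IFNg, 20 to 100 in Res499 and 669 to 1688 in B16_untreated, so the medians of Res499 replicate 2 rest on few peaks.

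**Figure D3:**
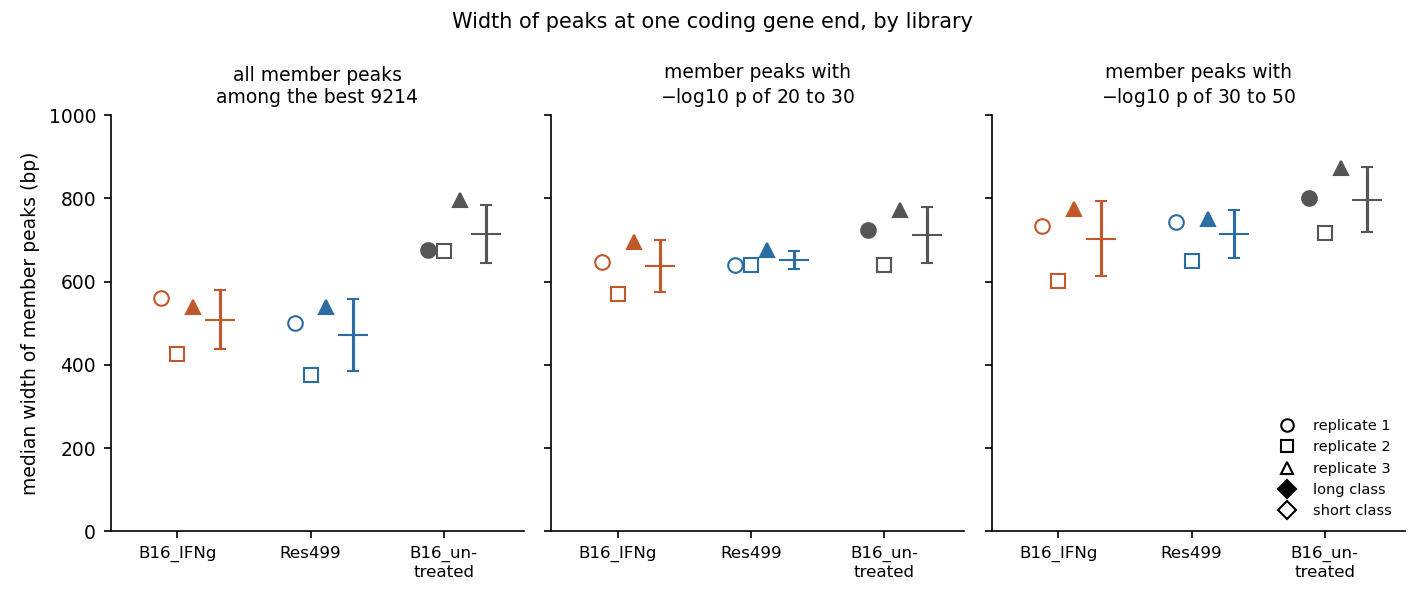
Median width of member peaks (y axis, bp) per library and group, for all used member peaks and for those with a −log10 p of 20 to 30 and of 30 to 50; filled points are the long fragment class, open points the short class, and bars give the mean ± SD of 3 libraries. In the left panel the 3 B16_untreated points (674 to 796 bp) lie above the 6 others (375 to 560 bp), and in the other panels the groups overlap.

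Around gene starts, the peak edges lay closer to the start on both sides in B16_IFNg and Res499, and the median summit lay within 12 bp of the start in every library. These distances were chosen after the widths were seen and cover the 2472 start members called in all 9 libraries. The upstream edge lay a median of 221, 175 and 221 bp before the start in B16_IFNg, 199, 155 and 229 bp in Res499, and 275, 266 and 319.5 bp in B16_untreated. The downstream edge lay 410.5, 321 and 379 bp after it in B16_IFNg, 383, 298 and 382 bp in Res499, and 453, 471.5 and 516 bp in B16_untreated. On both sides the untreated libraries lay beyond the other 6 (exact permutation over 3 groups, p = 0.025 for each side, and within fragment classes 0.0444 upstream and 0.0889 downstream). In all groups the peak reached further into the gene than away from it. The summit lay a median of 4, 4 and 7.5 bp downstream of the start in B16_IFNg, 10, 12 and 3.5 bp in Res499 and 8, 1 and 5 bp in B16_untreated (exact permutation p = 0.389). Between 77.1% and 79.7% of summits lay within 250 bp of the annotated start.

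**Figure D4:**
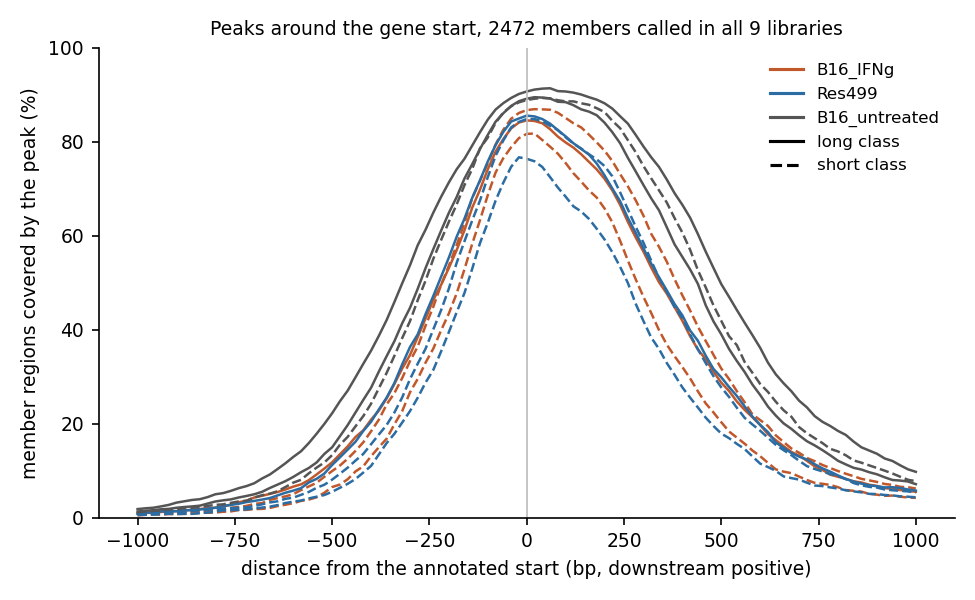
Share of the 2472 start members called in all 9 libraries whose peak covers a position (y axis, %) by distance from the annotated start (x axis, bp, downstream positive), with a line for each library, solid for the long and dashed for the short fragment class. At the start itself the cover is 81.7% to 86.7% in B16_IFNg, 76.4% to 85.6% in Res499 and 88.9% to 90.7% in B16_untreated, and the untreated lines are the outermost on both flanks.

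Region by region, no member passed in width. The fit (limma on log2 width) covered the 4481 regions called in all 9 libraries, 2993 of them members, with Benjamini-Hochberg adjustment over all 4481. At an adjusted p under 0.05, 0% of all regions were called in each of the 3 comparisons, and the smallest adjusted p among members was 0.182 for B16_IFNg against B16_untreated, 0.0661 for Res499 against B16_untreated and 0.651 for Res499 against B16_IFNg (limma, Benjamini-Hochberg). At an unadjusted p under 0.05, 527 members were narrower and 0 wider in B16_IFNg than in B16_untreated (17.6%, background 17.3%). In Res499 against B16_untreated 827 were narrower and 0 wider (27.6%, background 28.1%). Against B16_IFNg, Res499 had 107 narrower and 40 wider members (4.91%, background 4.6%). The members' shares were close to those of all regions throughout. The median log2 difference over members was -0.41 for B16_IFNg and -0.49 for Res499 against B16_untreated, with 96.7% and 98.0% of members below 0. Over all regions the medians were -0.41 and -0.50. After each library was centred on its own median width, a setting added after the data were seen, 0 regions passed in each comparison. Without Res499 replicate 3, 10 regions passed for Res499 against B16_untreated, 6 of them members. For B16_IFNg 2 regions passed there, and 2 were members. Without Res499 replicate 1, 8 regions passed for Res499, 5 of them members. In bp in place of log2, 25 regions passed for Res499, 19 of them members, and 6 for B16_IFNg, 2 of them members. In the main fit 2993 of the 4481 regions were members, so these counts do not set members apart.

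The members with the smallest p in width all missed the adjusted threshold, and groups that stand apart there follow largely from that choice. The peak at Cers6, a ceramide synthase (chr2:68861147-68862261), was 420, 322 and 226 bp wide in Res499 and 913, 1000 and 1107 bp in B16_untreated, a log2 difference of -1.68 ± 0.249 (SE; adjusted p = 0.0661, limma). In B16_IFNg it was 769, 791 and 635 bp wide, between the other groups. At Tm9sf2, a transmembrane protein of endosomes and Golgi, the peak was 336, 329 and 335 bp wide in B16_IFNg and 277, 312 and 339 bp in Res499, against 674, 648 and 706 bp in B16_untreated. Both groups stood clear of the untreated libraries there, with log2 differences of -1.02 ± 0.176 for B16_IFNg and -1.13 ± 0.176 for Res499 (SE; adjusted p = 0.182 and 0.0767, limma). Wwc2, Il1rap (the accessory chain of the interleukin 1 receptor) and Apbb2 were also among the first by p for B16_IFNg, and Btbd3, Ggnbp2 and Xpo6 (an exportin of actin) for Res499.

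A few members had the opposite sign in width. The member at Csf2ra, a chain of the GM-CSF receptor, was 762, 685 and 716 bp wide in B16_IFNg, against 332, 660 and 794 bp in B16_untreated, with overlap. Psmd3, a proteasome cap subunit, was 665, 871 and 834 bp wide in Res499, against 647, 562 and 673 bp in B16_untreated. Between Res499 and B16_IFNg, Eif3j1, a translation initiation factor, was 505, 248 and 377 bp wide in Res499 and 1017, 767 and 1061 bp in B16_IFNg, a log2 difference of -1.38 ± 0.276 (SE; adjusted p = 0.651, limma). Ubac2 ran the other way, with 744, 574 and 794 bp in Res499 and 422, 340 and 226 bp in B16_IFNg.

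For rank, each region's within-library rank was turned into a normal score, so that a difference of 1 is 1 SD of the order of all peaks and a positive one is a more significant peak. At an adjusted p under 0.05, 0% of the 4481 regions passed in each comparison, members included (limma, Benjamini-Hochberg). The smallest adjusted p among members was 0.515 for B16_IFNg against B16_untreated, 0.616 for Res499 against B16_untreated and 0.527 for Res499 against B16_IFNg. At an unadjusted p under 0.05, 68 members were higher and 55 lower in B16_IFNg than in B16_untreated (4.11%, background 4.04%). Res499 against B16_untreated had 98 higher and 72 lower (5.68%, background 6.36%), and Res499 against B16_IFNg had 81 higher and 80 lower (5.38%, background 5.71%). The shares were near those of all regions. The standard error of a member's difference had a median of 0.43, and differences of several times that size still missed the adjusted threshold. Another setting took regions called in at least 6 libraries, with absent calls set to the last rank. There 5, 11 and 5 members passed, of 7, 16 and 10 regions, in the same order of comparisons. A region absent from every library of a group has the same score in all of them. These counts can thus reflect absent calls and are not of rank alone. The members named next are those with the smallest unadjusted p and all miss the adjusted threshold. They were chosen for their difference in rank, so groups that do not overlap follow largely from that choice. The share of all regions whose groups separate this way was not counted.

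B16_IFNg against B16_untreated asks which gene ends change after long exposure to interferon gamma. The start of Mylip (chr13:45389414-45390271), whose promoter is printed above, ranked 1799, 2721 and 4964 in B16_IFNg and 8417, 9166 and 8299 in B16_untreated. The groups did not overlap, and the score difference was 2.17 ± 0.458 (SE; unadjusted p = 0.00023, adjusted 0.515, limma). Cdc5l, a splicing factor, ranked 3944, 2440 and 4350 in B16_IFNg and 7033, 8927 and 8197 in B16_untreated. Crlf3, a cytokine receptor-like factor, ranked 3871, 3282 and 887 in B16_IFNg and 8033, 7903 and 6385 in B16_untreated. In these 3 genes every B16_IFNg library ranked the peak better than every untreated library. Sh3glb1, an endophilin, was also among the first 5 by p on the higher side. On the lower side, Hadh, an enzyme of mitochondrial fatty acid oxidation (chr3:131271339-131272518), ranked 8261, 8048 and 5952 in B16_IFNg and 2265, 5096 and 2023 in B16_untreated, a difference of -1.37 ± 0.421 (SE; adjusted p = 0.998, limma). Tmem11, a protein of the inner mitochondrial membrane, ranked 5753, 6801 and 1882 in B16_IFNg and 996, 1345 and 439 in B16_untreated. Scaf8 (a binder of the RNA polymerase II tail), Ppp4r3b (a subunit of protein phosphatase 4) and Naa16 (protein N-terminal acetylation) followed, and in all 5 genes on the lower side the groups did not overlap.

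Res499 against B16_untreated sets the resistant line against its parent. It shares its untreated libraries with the comparison above, and Mylip and Crlf3 lead both. Mylip ranked 2397, 2218 and 6173 in Res499, a score difference of 2.04 ± 0.458 against B16_untreated (SE; adjusted p = 0.616, limma). Crlf3 ranked 3037, 1481 and 3691 in Res499, a difference of 1.46 ± 0.406 (SE; adjusted p = 0.661, limma). Tmem177, a factor of cytochrome c oxidase assembly, ranked 830, 4028 and 2125 in Res499 and 5084, 7782 and 8563 in B16_untreated. Usp25, a deubiquitinase, ranked 1099, 522 and 498 in Res499 and 2726, 3674 and 6577 in B16_untreated. No untreated library overlapped Res499 in these 4 genes. On the lower side, Dpp9, a dipeptidyl peptidase (chr17:56218452-56219295), ranked 6450, 5990 and 2881 in Res499 and 1524, 604 and 389 in B16_untreated, a difference of -1.54 ± 0.431 (SE; adjusted p = 0.661, limma). Kdm4b, a histone H3 lysine demethylase, ranked 1269, 4753 and 873 in Res499, against 170, 404 and 124 in B16_IFNg and 139, 169 and 144 in B16_untreated. Its Res499 libraries were all worse than the other 6. Trim26 and Zscan20 were lower as well, with Trim26 at 3739, 5079 and 3379 in Res499 and 1126, 505 and 530 in B16_untreated. The peak of Pik3r3, a regulatory subunit of phosphoinositide 3-kinase, ranked 4065, 6731 and 4356 in Res499 and 973, 1091 and 1512 in B16_untreated.

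Res499 against B16_IFNg sets the resistant line against the cells exposed to interferon. The start of Phb, prohibitin of the inner mitochondrial membrane (chr11:95666626-95667421), ranked 8377, 6432 and 7736 in Res499 and 2657, 2542 and 644 in B16_IFNg, a difference of -1.83 ± 0.413 (SE; unadjusted p = 0.00043, adjusted 0.527, limma). In B16_untreated it ranked 3803, 6768 and 6835, between the other groups in replicate 1 and within the Res499 range in replicates 2 and 3. Trmu, a modifier of mitochondrial tRNA, ranked 6395, 7531 and 7646 in Res499 and 2787, 1754 and 720 in B16_IFNg, a difference of -1.73 ± 0.394 (SE; adjusted p = 0.527, limma). Klf13, a Krüppel-like transcription factor, ranked 2379, 3072 and 2172 in Res499 and 385, 392 and 261 in B16_IFNg. Prkci, an atypical protein kinase C (chr3:30995316-30996175), was higher, with ranks of 121, 187 and 766 in Res499 and 4896, 5845 and 1799 in B16_IFNg, a difference of 1.74 ± 0.447 (SE; adjusted p = 0.747, limma). In B16_untreated Prkci ranked 669, 3863 and 3019. Atp11b, a phospholipid flippase, ranked 1503, 3189 and 1706 in Res499 and 7737, 5296 and 7759 in B16_IFNg. Klhdc3, Ogfod2 and Dipk1a were the next on the higher side, and 4933440N22Rik and Mindy4 on the lower.

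**Figure D5:**
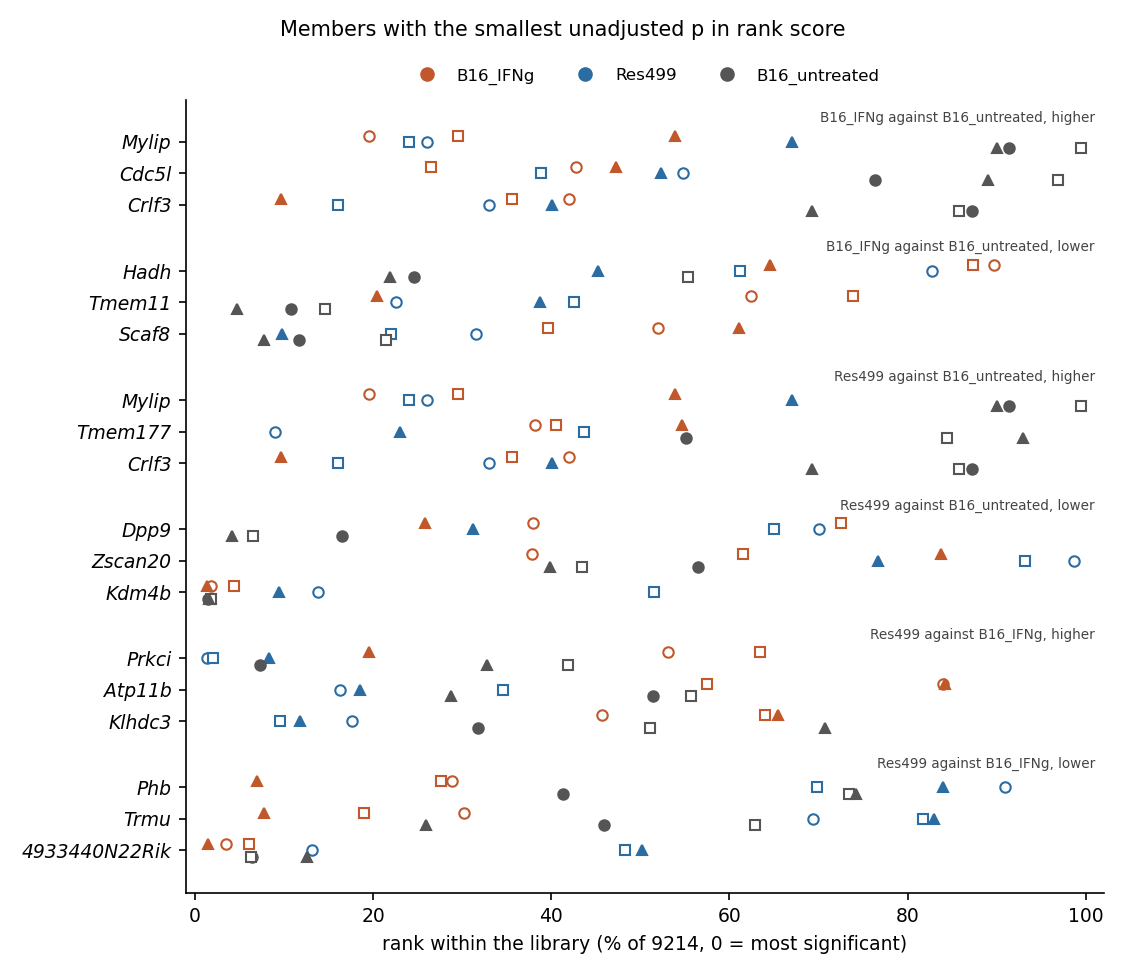
Rank within the library (x axis, % of 9214, 0 the most significant) of 3 members on each side of the 3 rank comparisons, 1 row per gene and 1 point per library; colours are groups, shapes replicates (circle 1, square 2, triangle 3), filled points the long and open points the short fragment class. The Mylip points of B16_untreated lie at the far right (ranks 8299 to 9166), to the right of the B16_IFNg and Res499 points, and all members shown miss the adjusted threshold.

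Presence and absence gave few members that separated 2 groups. A member was counted as gained when each library of B16_IFNg called it and no library of B16_untreated did, and as lost in the opposite case. There were 34 gained members, 6.60% of the 515 members called in exactly 3 of these 6 libraries (background over all such regions 4.23%). There were 24 lost members, 4.66% (background 6.5%). Gained and lost need the same number of calls, but 2 of the untreated lists are the longest of all and continue further below the used peaks. All 34 gained members had a deposited peak beyond the used 9214 in B16_untreated, 29 of them in each of its 3 libraries, and 23 of the 24 lost ones had one in B16_IFNg, 4 of them in all 3. Over all deposited peaks 1 member was gained and 82 were lost, so which direction is the more frequent rests on the number of peaks used. Without each of the 6 libraries in turn, a looser rule, 63 to 108 members were gained and 40 to 68 lost. For all deposited peaks and for libraries left out, the share over all regions was not counted, here or in the comparisons below. Those counts are therefore no result about members.

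Among the gained members of B16_IFNg, Adsl, an enzyme of purine synthesis, ranked 5875, 3460 and 4273 there and was also called in Res499 replicates 1 and 3, at 7457 and 3926. Lrpap1 ranked 5217, 2942 and 8599 in B16_IFNg and was called in 2 Res499 libraries. Itga9, an integrin subunit (chr9:118606393-118607149), and Slc6a9, a glycine transporter, were called by every B16_IFNg library and by no other. Itga9 ranked 3606, 4943 and 8281, and Slc6a9 4994, 5621 and 5350. These are middle ranks, not those of the strongest gene starts. Gstm5, Limd1, Dennd1b, Kxd1, Hectd4 and Eif3d were the others of the first 10 by mean rank in the libraries that called them, and each was also called in 1 to 3 Res499 libraries.

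Of the lost members, Fbxo46, an F-box protein, was called in no B16_IFNg library and ranked 3850, 4404 and 4385 in Res499 and 4343, 4937 and 5316 in B16_untreated. Lrrc20 showed the same pattern, at 6372, 6737 and 5382 in Res499 and 6562, 5647 and 4066 in B16_untreated. Both were absent from the used B16_IFNg lists alone, and further down those lists Fbxo46 had a deposited peak in 1 library and Lrrc20 in 2. Tfe3, a transcription factor related to Mitf (chrX:7762479-7762982), was called in 2 Res499 libraries and ranked 8992, 2227 and 6312 in B16_untreated. Chgb, a granule protein of neuroendocrine cells, ranked 9048, 2105 and 3967 in B16_untreated. Mad2l1bp, a partner of Mad2, was called in the 3 untreated libraries alone, at 3951, 8928 and 5389. Atad3a, Gm39701, Hmgb3, Myo18a and Mrps15 completed the first 10.

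Res499 had 56 gained members against B16_untreated, 10.2% of the 549 called in exactly 3 of the 6 libraries (background 6.52%), and 35 lost ones, 6.38% (background 10.8%). Of the gained members 54 had a deposited peak in B16_untreated, 45 in all 3 libraries, and of the lost members 31 had one in Res499. Res499 replicate 2 had no peaks beyond those used, so none could be found there. Over all deposited peaks 4 were gained and 197 lost. Without each of the 6 libraries in turn 83 to 144 were gained and 52 to 104 lost. A region near LOC100504180 came first by mean rank, at 749, 4012 and 4243 in Res499, and was also called in 2 B16_IFNg libraries. Plk3, a polo-like kinase of the stress response, ranked 3028, 6124 and 5980 in Res499, and of B16_IFNg replicate 2 alone called it, at 2235. Wipf2, a regulator of actin assembly, ranked 2326, 5418 and 1795 in Res499. Rpl26, a ribosomal protein, ranked 1815, 4508 and 4926 in Res499, and Rps6ka1, a kinase downstream of ERK, 4456, 3257 and 3738. Ccdc32 and Slc38a7 were called in the 3 Res499 libraries and in none of the other 6, at 3080, 6074 and 4764 for Ccdc32 and 3542, 3799 and 8622 for Slc38a7. Dhps (hypusine synthesis), Hectd4 and L3mbtl2 were the others of the first 10.

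Among the lost members of Res499, Gm14410 ranked 1627, 886 and 3677 in B16_IFNg and 8903, 377 and 379 in B16_untreated. It lies among similar predicted genes on chromosome 2, and its value is uncertain because the treatment of reads that fit several of them is not given in the sources used here. Mcm10, a factor of replication initiation, ranked 4271, 3213 and 4960 in B16_IFNg and 7914, 3896 and 1463 in B16_untreated. Enox2 was likewise called in all 6 libraries of the other groups, and it had a deposited peak in 1 Res499 library. Gpi1 of glycolysis was called in 2 B16_IFNg libraries and ranked 6805, 5315 and 4937 in B16_untreated. Txlng, Phf12, Rdh11 and Naca were further lost members, and Mad2l1bp was lost in this comparison as in that of B16_IFNg, which uses the same untreated libraries.

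Between Res499 and B16_IFNg, 32 members were gained in Res499, 5.36% of the 597 called in exactly 3 of the 6 libraries (background 4.49%), and 33 were lost, 5.53% (background 6.27%). A deposited peak in B16_IFNg was present for 29 of the gained members, and one in Res499 for 28 of the lost members. Over all deposited peaks 10 were gained, and the number lost is not reported here. Without each of the 6 libraries in turn 66 to 93 were gained and 65 to 92 lost. Hook1, a microtubule adaptor, ranked 3213, 2468 and 395 in Res499 and was called in 2 untreated libraries, at 5641 and 5913. Snrnp27, a protein of the spliceosome (chr6:86684315-86684654), ranked 3930, 6692 and 6814 in Res499 and had no deposited peak in B16_IFNg. Fbxo46, Lrrc20, Ccdc32 and Slc38a7 recurred here, and Trdmt1 (a tRNA methyltransferase), Ckap4, Crtc3 (a coactivator of CREB) and Pde8a were further gained members. On the lost side, Gm14410, Mcm10 and Enox2 recurred, as did Itga9 and Slc6a9, and Zfp442, Arfgef1, Ccdc6, Tpcn2 and Uck1 were called in 1 or 2 untreated libraries besides the 3 of B16_IFNg.

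Interferon target genes had members, but few that every library called. Of all 21631 coding genes 31.8% had a member and 13.8% had one called in all 9 libraries. Of 36 interferon response genes 17 had a member and 3 had one in all 9 libraries: Socs3 and Socs1, feedback inhibitors of Jak kinases, and the transcription factor Irf1. The Socs3 member ranked 2569, 1891 and 3303 in B16_IFNg, 2413, 3081 and 1113 in Res499 and 3378, 3671 and 1099 in B16_untreated. Irf1 ranked 3636, 6674 and 8836 in B16_IFNg, 7071, 6652 and 6168 in Res499 and 6502, 5038 and 6974 in B16_untreated. Groups overlapped at both genes. Socs1 ranked 8361, 6088 and 7203 in Res499, against 4728, 6438 and 1790 in B16_IFNg and 6395, 3473 and 3860 in B16_untreated. Its score difference between Res499 and B16_IFNg was -0.94 with an unadjusted p of 0.0455 (limma), and it missed the adjusted threshold. All 3 libraries of a group called 4 of the response genes in B16_IFNg, 5 in Res499 and 7 in B16_untreated. Over all coding genes the counts were 3961, 3897 and 3952. Irf7, Rsad2 and Ifit2 were called in 1, 2 and 7 libraries in all. The median rank score difference of the 3 regions called in all libraries was -0.0017 for B16_IFNg and -0.13 for Res499 against B16_untreated, and over the 2993 members it was 0.0048 and -0.0039.

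Most genes of interferon reception had a member. Of 15 receptor chains, kinases and regulators 13 had a member and 8 had one in all 9 libraries. Stat3 led them, with ranks of 2153, 1467 and 259 in B16_IFNg, 689, 643 and 779 in Res499 and 487, 696 and 1186 in B16_untreated. Ifnar1, a chain of the type I receptor, ranked 3830, 593 and 902 in B16_IFNg, 2959, 1945 and 268 in Res499 and 2258, 871 and 475 in B16_untreated. Jak1 ranked 2127, 1474 and 1666 in B16_IFNg, 1107, 1371 and 3601 in Res499 and 3049, 2057 and 883 in B16_untreated. No group stood apart at these 3 genes. Jak2, Tyk2, Ptpn2 (a phosphatase of Jak and Stat proteins), Ptpn11 and Pias1 were the others called everywhere, and Ifngr1 was called in 8 libraries. Pias1 and Ptpn11 had unadjusted limma p-values of 0.0243 and 0.0444 in Res499 against B16_untreated, with score differences of 1.13 and 0.92, and neither passed the adjusted threshold.

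Of 20 antigen presentation genes 10 had a member and 4 had one in all 9 libraries: B2m, the light chain of MHC class I, Calr and Canx, chaperones of the endoplasmic reticulum, and the peptidase Erap1. Calr ranked 1546, 2916 and 574 in B16_IFNg, 1198, 4104 and 2270 in Res499 and 780, 750 and 557 in B16_untreated. Erap1 ranked 5241, 2413 and 3066 in B16_IFNg, 2645, 4998 and 2546 in Res499 and 1999, 1010 and 2786 in B16_untreated. Res499 stood at worse ranks than B16_untreated at Calr, without overlap, and the groups overlapped at Erap1. Over the 4 regions the median score difference was -0.50 for B16_IFNg and -0.46 for Res499 against B16_untreated, 0 of them had an unadjusted p under 0.05, and the medians over all members were near 0. Psmb10, an immunoproteasome subunit, was called in 0 B16_IFNg, 2 Res499 and 3 untreated libraries. Nlrc5, the activator of MHC class I genes, was called in 2 B16_IFNg libraries and no other. The classical class I genes H2-K1 and H2-D1 were each called in 3 libraries in all, and Cd274, which encodes PD-L1, in 2 B16_IFNg, 3 Res499 and 3 untreated libraries.

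Of 20 melanocyte genes 11 had a member, and 2 had one in all 9 libraries. Mitf, the master factor of the lineage, ranked 2284, 1831 and 2412 in B16_IFNg, 603, 3312 and 605 in Res499 and 1150, 1474 and 3046 in B16_untreated. Pax3, which acts upstream of Mitf, ranked 2469, 4287 and 2915 in B16_IFNg, 2150, 7301 and 4063 in Res499 and 5108, 6756 and 5820 in B16_untreated. At Pax3 every B16_IFNg library ranked the peak better than every untreated one, and no comparison of the 2 genes had an unadjusted p under 0.05. A member at Tyrp1, an enzyme of melanin synthesis, was called in 1 B16_IFNg, 0 Res499 and 3 untreated libraries, and another at the same gene in 1, 0 and 1. Dct was called in 2 libraries of each group and Tyr in 1 of each. Other members went different ways. Slc24a5 was called in 2 Res499 libraries alone, and Kit and Slc45a2 each in 1 Res499 library alone. Gpnmb was called in 2 B16_IFNg, 3 Res499 and 2 untreated libraries, and Rab38 in 3, 2 and 3 in the same order. Rab27a was called in 1 untreated library alone. Counting all deposited peaks within 1 kb of any of their ends, 9 to 10 of the 20 genes had a peak in a B16_IFNg library, 8 to 10 in a Res499 library and 12 to 14 in an untreated one. The untreated lists held 15045 to 25374 peaks and the other 6 held 9221 to 16240.

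The list of AP-1, TEAD and early response genes had members most often: 23 of 25 genes had one and 11 had one in all 9 libraries. Jun ranked 1526, 786 and 3396 in B16_IFNg, 2183, 3291 and 2774 in Res499 and 3057, 624 and 1724 in B16_untreated, with overlap between all groups. Jund, a partner of Jun in AP-1, ranked 628, 2020 and 938 in Res499 and 2006, 4451 and 5384 in B16_IFNg (score difference 0.98, unadjusted p = 0.0258, limma). Dusp6 had a score difference of 0.98 in the same comparison (unadjusted p = 0.042, limma). Spry2, an inhibitor of receptor kinase signalling, had a score difference of -1.23 in Res499 against B16_untreated (unadjusted p = 0.0177, limma). None of these members passed the adjusted threshold.

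Most genes of the housekeeping lists had a member, against 31.8% of all coding genes. Of all coding genes with a member 43.5% had one called in all 9 libraries, and whether these lists differ from that share was not tested. Members were present at 23 of 30 cell cycle genes, 24 of 32 ribosomal protein genes, 22 of 30 proteasome genes and 15 of 28 splicing and polymerase genes, and 9, 9, 8 and 5 genes of these lists had one in all 9 libraries. Mcm3, a subunit of the replicative helicase, ranked 1020, 178 and 290 in B16_IFNg, 108, 620 and 342 in Res499 and 1751, 183 and 760 in B16_untreated. Ccnb1, cyclin B1, ranked 2782, 709 and 1819 in B16_IFNg and 5426, 4156 and 5328 in B16_untreated, without overlap (score difference 1.03, unadjusted p = 0.0247, limma, not past the adjusted threshold). U2af1, a splicing factor, ranked 843, 928 and 1016 in B16_IFNg, 706, 538 and 884 in Res499 and 1650, 1657 and 1690 in B16_untreated. Both groups ranked better than every untreated library there, but the score differences were small. They were 0.37 for B16_IFNg and 0.52 for Res499 against B16_untreated (unadjusted p = 0.296 and 0.143, limma). Of 17 glycolysis genes 12 had a member. All 3 libraries of a group called 9 of the 12 in B16_IFNg, 8 in Res499 and 12 in B16_untreated, and of the 6868 genes with a member they called 3961, 3897 and 3952 in the same order. Whether the list differs between groups was not tested. Eno1 ranked 876, 514 and 192 in B16_IFNg, 130, 437 and 1024 in Res499 and 869, 262 and 220 in B16_untreated. The genes not called in every library of Res499 were Gpi1, Pdha1, Aldoa and Pfkp. Members with an unadjusted p under 0.05 in these lists were Rps19, Psmc4 and Pfkl (Res499 against B16_untreated, score differences -0.84, -1.23 and -0.996) and Rps20, Rps3 and Pdk1 (Res499 against B16_IFNg, -1.12, 1.12 and 1.003), and none passed the adjusted threshold. The SWI/SNF list had 11 of 18 genes with a member and 3 in all 9 libraries, and the neural crest and EMT list had 8 of 16 and 4. Sox9 was called in 3 B16_IFNg, 2 Res499 and 0 untreated libraries.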

How the data were processed

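ATAC-seq was measured in 9 libraries of sorted B16 cells, 3 per group. Per the submitters' processing notes, CASAVA, cutadapt 1.9, Bowtie2 2.2.4, MACS2 and GRCm38 (mm10) were used, while the version and options of MACS2, and whether reads were moved to the transposase cut site, are not given in the sources used here. The authors deposited 1 peak list per library, called on single libraries, with a score, a fold enrichment (a ratio), a −log10 p and a −log10 q for each peak and no read counts, so depth is unknown and equal numbers of peaks were used.

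For each library the best 9214 peaks by −log10 p on chromosomes 1 to 19 and X (the length of the shortest list) were merged where they overlapped or touched. Chromosomes Y and M and unplaced sequences were not used. Gene ends and promoters came from RefSeq tables on GRCm38, which give no exons. The members and gene lists were chosen with earlier results of these data known. Members named by gene were the 5 with the smallest unadjusted p in each direction of each comparison where fewer than 5 passed, the first 10 gained and lost by mean rank, the 10 best ranked, the 5 widest and the first 3 of each gene list. Some regions that this rule also names are not reported here.

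Library values were compared with two-sided exact permutation tests over libraries and paired values with exact sign-flip tests. Regions called in all 9 libraries were fitted with limma 3.58.1 (R 4.3.3) on the normal score of the rank and on log2 width, all groups in 1 fit, with Benjamini-Hochberg adjustment over all 4481 regions. The fits were tested on simulated data. Alternatives were the number of peaks, ranking by fold, merging, the window, scales, the fragment class, a replicate block and leaving out each library. Python 3.11.15, numpy 2.4.6, pandas 2.3.3, scipy 1.17.1 and matplotlib 3.10.9 were used.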

Additional observations from a re-analysis of the deposited data

How the results depend on the processing

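Values that changed with a setting are given by setting. The joint groupings, the widths at equal significance, the widths centred per library and the distances from the start were added after the data were seen. With all deposited peaks in place of 9214, the difference in members called between B16_IFNg and Res499 together and B16_untreated was -1316, width gave 1 region and 1 member for Res499 against B16_untreated, and gained and lost members were 1 and 82 for B16_IFNg, 4 and 197 for Res499 and, for Res499 against B16_IFNg, 10 gained. With 4607 peaks per library, the rank score gave 1 region each for B16_IFNg and Res499 against B16_untreated, and 23 members were lost in Res499. The difference in median rank of members turned to 0.82 points for Res499 against B16_untreated and 0.58 against B16_IFNg (exact permutation p over 3 groups 0.05). Ranking by fold enrichment gave a joint difference of 277 members called (exact p = 0.0238) and 60 gained in B16_IFNg. The log2 of the rank gave 1 region for B16_IFNg and 2 for Res499 against B16_untreated. Regions called in at least 6 libraries, with absent calls at the last rank, gave 7, 16 and 10 regions and 5, 11 and 5 members for B16_IFNg and Res499 against B16_untreated and Res499 against B16_IFNg. Width in bp gave 6 and 25 regions and 2 and 19 members against B16_untreated.

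In the same order of comparisons, a lenient rule (at most 1 library off in each group and at least 2 more calls) gave 345, 425 and 309 gained and 211, 273 and 296 lost members, and absence from the full lists gave 0, 2 and 3 gained and 1, 4 and 5 lost. At a −log10 p of 20 to 30 and of 30 to 50, the exact p of width over 3 groups was 0.346 each, and the joint difference was -67.1 and -88.0 bp. Leaving out each library in turn gave a joint difference in members called of 143 to 214, an exact p of width of 0.00714 to 0.0536, 0 to 1 regions by rank score for Res499 against B16_untreated, 0 to 2 regions and 0 to 2 members by width for B16_IFNg and 0 to 10 regions and 0 to 6 members for Res499. The gained members ran over 34 to 108, 56 to 144 and 32 to 93, and the lost over 24 to 68, 35 to 104 and 33 to 92, where leaving out a library lowers the number of calls needed. For gained and lost members the share over all regions was not counted under these settings. The causes of these moves were otherwise not tested. None of the 30 named rank scores reversed or passed over 536 alternative values. These scores were picked for their differences in the same libraries that the alternatives reuse. The lack of reversals therefore says little about how stable they are.

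Same-numbered libraries correlated at -0.0285 to 0.0900 over 9 pairs, and differently numbered ones at -0.0893 to 0.0637. All replicate 2 libraries were in the short class and all replicate 3 libraries in the long class. Whether the numbers pair the samples cannot be decided here, because the number goes partly with the fragment class. With the number as a block, the exact p was 0.0278 for width, 0.194 for members called and 0.222 for rank, and 0 regions passed in each comparison. The depth in reads is unknown, so no limit can be set on an absent call.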
